A study of Mus musculus with 4 samples.

Results

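Pstpip2, AB124611, Rce1, Mesdc1 and Cd33 are 5 of the 21506 genes with a row in the deposited tables. All of them were lower in mouse myeloid cells carrying miR-125b, and none has a strong seed match for that miRNA in the longest 3′ UTR of its coding isoforms. They were picked after an earlier look at these same libraries, among the 24 genes with the smallest p in limma's comparison of the 2 conditions at a mean of 2 counts per M reads (CPM) or more. Of those 24 genes 22 were lower, 11 of the 22 had no 8mer or 7mer-m8 match, and the 5 genes described here are among these 11. The other 6 are Ifitm6, Ltf, S100a8, Ccl6, Lyz2 and Gzmb, which appear here only beside these genes, as a near profile or as markers. Their difference between the conditions is thus what chose them, and it is given below as a description with no test. The last gene inside that limit was Mesdc1, with a log2 fold change of -1.01. The first outside it was Clu, at rank 25, which was higher with miR-125b by 1.56.

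The cells are 32Dclone3, a mouse myeloid progenitor line that grows in interleukin-3, supplied here by conditioned WEHI medium. One group had been stably infected with the XZ control virus and the other with XZ-miR-125b, each in 2 infections from different virus supernatants, which gives 2 libraries per group of the same clonal line. Total RNA was enriched for poly(A) and sequenced on an Illumina instrument. The design sets vector cells against miR-125b cells, and a p-value here measures only the spread between these infected cultures.

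A miRNA guides Argonaute proteins to messenger RNAs that pair with its seed, the bases near its 5′ end, and such messengers are translated less and lost sooner. Matches in 3′ UTRs act most strongly, with the 8mer ahead of the 7mer-m8, the 7mer-A1 and the 6mer, while matches in coding sequence are on the whole weaker. miR-125b is abundant in haematopoietic stem and progenitor cells, and its overexpression can cause leukaemia in mice. The genes described here act in different places. Pstpip2 encodes an F-BAR adaptor at the membrane and actin cytoskeleton of myeloid cells, whose loss in mice causes the autoinflammatory bone disease chronic multifocal osteomyelitis. Cd33 encodes a sialic acid-binding receptor of the Siglec family, known as a marker of myeloid cells. Rce1 encodes the endoplasmic reticulum protease that trims CAAX proteins such as Ras after prenylation. Mesdc1, now named Tlnrd1, encodes an actin-bundling protein related to the talin rod. For AB124611 neither the tables nor the annotation used here gives a function.

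The mature miRNA and the seed matches found in coding isoforms of these genes are printed because the group is defined by what is missing from the 3′ UTR. Not printed are 6mers in a retained-intron isoform of Cd33 that has no annotated coding sequence. Capitals mark the seed (bases 2 to 8) in the miRNA and the matching bases in the targets. The target windows are 30 bases of GENCODE M21 transcripts (GRCm38), and the miRNA is from RefSeq (GRCm38.p6, chr9:41581940-41581961, plus strand).
miR-125b-5p: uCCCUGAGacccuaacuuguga
Mesdc1, coding sequence, 8mer (chr7:83882288-83882317, minus strand): tgacccagtgcCTCAGGGAtctggcgcagc
Mesdc1, 3′ UTR, 6mer (chr7:83880570-83880599, minus strand): tcatttacttttTCAGGGggttttattgtg
AB124611, last coding exon, 7mer-m8 (chr9:21544701-21544730, plus strand): gcaaccctagaCTCAGGGcctcggaagagg
AB124611, alternative coding exon, 7mer-m8 (chr9:21535949-21535978, plus strand): gctgtgctgttCTCAGGGctggtggccatc

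The search used CTCAGGGA for an 8mer, CTCAGGG for a 7mer-m8, TCAGGGA for a 7mer-A1 and TCAGGG for a 6mer, on the transcript strand, and every longer match also holds the 6mer. Taking each gene's longest 3′ UTR, Pstpip2 (1089 bases), AB124611 (540 bases), Rce1 (416 bases) and Cd33 (4646 bases) had no match of any of these classes. Mesdc1 (2260 bases) had the single 6mer shown above. Among 9976 tested genes with a coding transcript, 63.7% had no match in the longest 3′ UTR, 13.6% had a 6mer at best and 15.6% had an 8mer or 7mer-m8. Having no match was thus the most frequent state. This longest 3′ UTR of Cd33 exceeded 94.9% of those of tested genes, but it belongs to another isoform than the row used here. The isoform of that row has a 3′ UTR of 743 bases and a length of 1962 bases in GENCODE M21. Its deposited row is longer, at 2571 exon bases. The last exon of that row, 1553 bases, is as long as in the row of the isoform with the long 3′ UTR. For the isoform with the long 3′ UTR, the deposited row has 2488 exon bases, against 5728 in GENCODE M21. As far as lengths show, the values of Cd33 thus leave out much of the long 3′ UTR.

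The coding sequences differed from the 3′ UTRs. Mesdc1 had an 8mer whose TCAGGG starts at base 917 of its coding sequence of 1089 bases. AB124611 had a 7mer-m8 in its last coding exon, whose TCAGGG starts at base 511 of the 591 coding bases of the isoform that the table lists. A longer coding isoform of AB124611 held this match and the other one shown above, in an exon the table's row does not include. In an isoform of AB124611 annotated as a target of nonsense-mediated decay, the reading frame stops early, and both of these matches then lie in the 3′ UTR. Pstpip2, Rce1 and Cd33 had no match of any class in the 5′ UTR, the coding sequence or the 3′ UTR of any coding isoform, a state shared by 35.8% of the tested genes with a coding transcript.

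**Figure D1:**
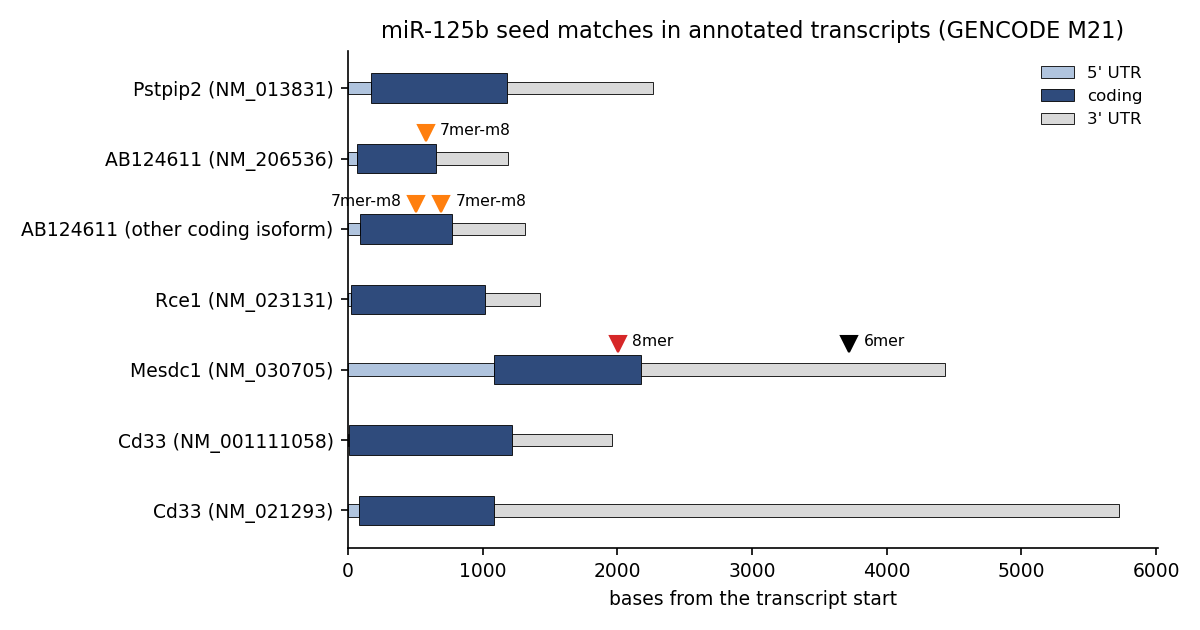
Annotated transcripts of the 5 genes drawn to scale in bases from the transcript start, with 5′ UTR, coding sequence and 3′ UTR as boxes and each miR-125b seed match as a triangle with its class. An 8mer and a 6mer stand in Mesdc1, 7mer-m8 matches stand in the coding sequence of AB124611, and the transcripts of Pstpip2, Rce1 and Cd33 shown here carry none.

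A coding match was not rare and did not set genes far apart. An 8mer or 7mer-m8 stood in the coding sequence of 16.7% of tested genes with a coding transcript and an 8mer in 6.65%. The 1357 genes with such a coding match and none in the 3′ UTR had a median log2 fold change of 0.011, the 6980 genes with neither had 0.049, and all 9976 had 0.028. For comparison, a median of -0.069 was found for the 1553 genes whose longest 3′ UTR holds an 8mer or 7mer-m8. Without control replicate 2 the medians were 0.0083 for genes with a coding match alone and 0.0023 for genes with neither, so that the order turned. In every other alternative the genes with a coding match alone had the lower median. Their differences from the genes with neither ran there from -0.082 (without control replicate 1) to -0.014 (GC correction). For the genes with a 3′ UTR match that difference was -0.119 as reported and -0.054 without control replicate 2. The genes with a coding match alone also had longer coding sequences, with a median of 2082 bases against 1233, and whether that plays a part was not tested.

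The values deposited are RPKM, reads scaled to a kilobase of exon and to M reads in the library, and they come from 10.4 to 12.6 M reads per library summed over all rows. At these depths 3 reads of a transcript of 1 kb amount to between 0.238 and 0.289 RPKM. The hairpin row of Mir125b-1 held 0 reads in both control libraries and 4 in each miR-125b library. Poly(A) libraries do not capture mature miRNAs. On a principal component with 57.8% of the variance, control replicate 2 stood away from the remaining libraries. Across genes its log2 difference from control replicate 1 was larger at higher GC content of the transcript (Spearman's coefficient 0.474, a description). As for the label of a myeloid line, the listed neutrophil markers summed to between 1063 and 2102 RPKM and the lymphoid markers to between 1.53 and 4.78 RPKM. Pax5, Ncr1, Rag1 and Il7r were at 0 throughout. The other lists were not so far apart. Stromal markers summed to between 177.2 and 317.8 RPKM and erythroid and megakaryocyte markers to between 180.6 and 297.9 RPKM. Monocyte and macrophage markers summed to between 155.6 and 228.9 RPKM, and mast cell and basophil markers to between 51.5 and 247.6 RPKM. With 1 cell line measured, the word myeloid cannot be checked for Rce1 and Mesdc1, and no claim about lineage is made for them.

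Pstpip2 (NM_013831, mm9 chromosome 18, 78033289 to 78121618, plus strand, 15 exons) gave 21.02 and 19.9 RPKM without miR-125b and 7.18 and 7.57 RPKM with it. Its replicates were close together and the groups lay far apart. The means were 20.4 ± 0.827 and 7.38 ± 0.277 RPKM (SD, n = 2 each), a 2.77-fold lower level with miR-125b. Between 201 and 534 reads stood behind each value.

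Cd33 (NM_001111058, chromosome 7, 50782826 to 50788541, minus strand, 7 exons) had the lowest level of the 5 genes, at 4.61 and 4.42 RPKM without miR-125b, against 1.23 and 1.62 RPKM with it. The groups did not overlap, and the miR-125b values rest on 40 and 49 reads, whose exact Poisson 95% intervals (counting error only) run from 0.881 to 1.68 and from 1.20 to 2.15 RPKM. The fold between the means was 3.16, while the log2 fold change on the scale of log2(RPKM + 1) was -1.19 ± 0.20 (SE). That scale understates changes at such low levels. A second deposited row of Cd33 (NM_021293) lacks an exon of 83 bases and shares all its other exons. Only 1, 3, 1 and 1 reads, in control replicates 1 and 2 and miR-125b replicates 1 and 2, separated the rows, too few to compare the isoforms.

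Rce1 (NM_023131, chromosome 19, 4622551 to 4625617, minus strand, 8 exons) was at 13.1 and 13.996 RPKM without miR-125b, against 6.30 and 6.07 RPKM with it. The control and miR-125b values were each tightly grouped, on 103 to 212 reads. The means were 13.5 ± 0.664 and 6.19 ± 0.163 RPKM (SD, n = 2 each), 2.19-fold lower with miR-125b, the smallest fold of the 5 genes.

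Mesdc1 (NM_030705, chromosome 7, 91029005 to 91032851, minus strand, a single exon of 3847 bases) was at 8.33 and 9.22 RPKM without miR-125b, against 3.87 and 3.83 RPKM with it. Its miR-125b libraries were nearly equal, and both control libraries lay above them. The means were 8.78 ± 0.626 and 3.85 ± 0.0281 RPKM (SD, n = 2 each), 2.28-fold lower with miR-125b. A gene of 1 exon has no splice junction, so its reads cannot show whether they come from spliced RNA.

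AB124611 (NM_206536, chromosome 9, 21330721 to 21349237, plus strand, 6 exons) had the highest level and the widest spread, at 25.1 and 35.95 RPKM without miR-125b, against 11.6 and 8.39 RPKM with it. The groups did not overlap, but the control libraries differed by 1.43-fold between themselves. The means were 30.5 ± 7.69 and 10.0 ± 2.29 RPKM (SD, n = 2 each), 3.05-fold lower with miR-125b. Without control replicate 1 the log2 fold change of -1.51 was -1.76, and without control replicate 2 it was -1.26. The exon length of its row, 579 bases, is 12 bases under the coding length of the same transcript in GENCODE M21 and 609 under its full length. As far as lengths show, the row holds little but coding exons, and its RPKM then leaves out reads from the annotated 3′ UTR of 533 bases.

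**Figure D2:**
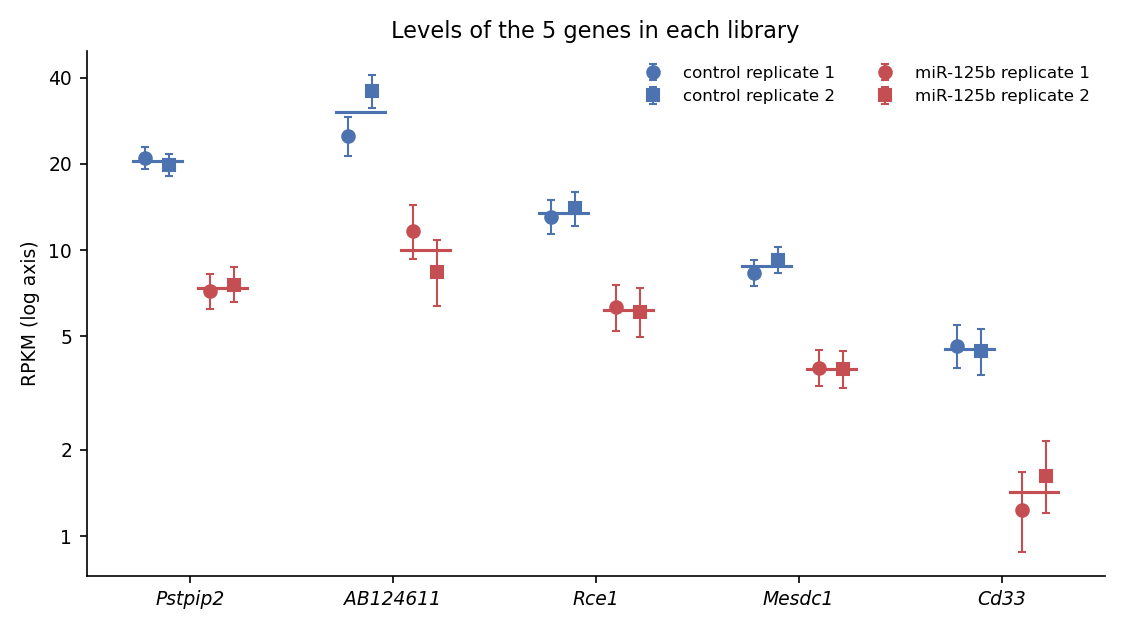
RPKM (log axis) of the 5 genes in each library, with circles for replicate 1, squares for replicate 2, horizontal lines for group means and bars for exact Poisson 95% intervals of the reads. Every miR-125b library lies below every control library for each gene, and the control libraries of AB124611, at 25.1 and 35.95 RPKM, lie farther apart than those of the other genes.

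On this scale per length the order of levels was AB124611, Pstpip2, Rce1, Mesdc1 and Cd33 in all 4 libraries, and no gene's range within a group overlapped that of the next. In control cells their mean levels ran from above 77.1% of tested genes (AB124611) to above 19.7% (Cd33). With miR-125b they ran from above 41.5% to above 3.81%. All 5 passed the filter of 1 RPKM in at least 2 libraries, and each was above 1 RPKM in all 4 libraries.

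In all 5 genes the lowest control value was at least 2.07 times the highest miR-125b value. Over all 10310 tested genes, 1.9% did not overlap between the groups and had a mean at least 2-fold lower, and 20.4% were lower without overlap. Since that contrast chose the 5 genes, nothing is read from their count. Over all genes limma called 0 (0.0%) at an adjusted p under 0.05, with 967 at an unadjusted p under 0.05, and limma-voom on recovered reads also called 0, with 999. Without miR-125b replicate 1 limma called 91 genes, without miR-125b replicate 2 it called 25 and without control replicate 2 it called 1. The median log2 fold change over all tested genes was 0.024, and those of the 5 genes ran from -1.51 to -1.01.

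**Figure D3:**
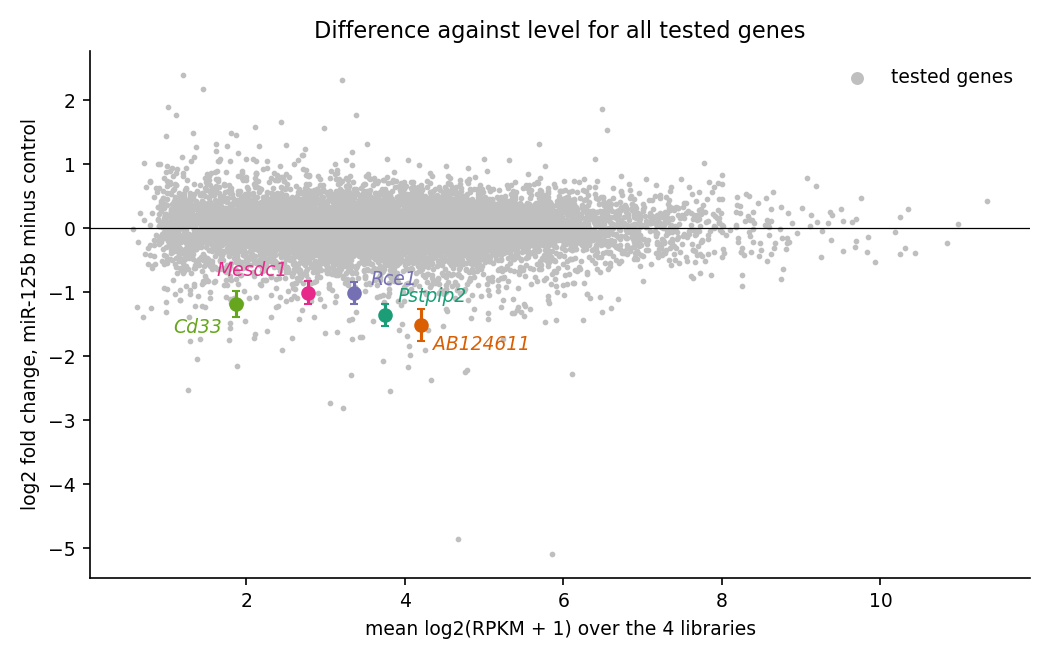
Log2 fold change (miR-125b minus control, on the log2(RPKM + 1) scale) against the mean log2(RPKM + 1) over the 4 libraries for the 10310 tested genes, with the 5 genes in colour and bars of 1 SE. The 5 genes lie at low to middle levels, and their log2 fold changes sit between -1.51 and -1.01. In control cells their mean levels ran from above 19.7% to above 77.1% of tested genes. With miR-125b they ran from above 3.81% to above 41.5%.

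The control replicates lay close together for all of these genes but AB124611. Between the control libraries the difference (replicate 2 minus replicate 1, on the log2(RPKM + 1) scale) was -0.079 for Pstpip2, 0.093 for Rce1, 0.13 for Mesdc1 and -0.048 for Cd33, and 0.50 for AB124611. The median size of that difference over all tested genes was 0.29. A small spread helps a gene to a small p, so these values too are part of how the genes were chosen. The GC content of their transcripts ran from 48.7% (Pstpip2) to 57.5% (Rce1), the latter above that of 87.0% of tested genes. With each library corrected for GC content the log2 fold change was -0.91 for Rce1 and -0.95 for Mesdc1, against -1.01 for both.

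The other genes with the closest values over the 4 libraries were found by the Euclidean distance between log2(RPKM + 1) values, each centred on its own mean. Rce1 and Mesdc1 were nearest to each other, at a distance of 0.036. The next for both was 2010320M18Rik, at 0.11 and 0.089. Pstpip2 was nearest to Nrm, the gene of the nuclear envelope protein nurim (0.093), which has an 8mer, and then to the small nucleolar RNA Snora64 (0.15), whose row held 2 to 7 reads per library. Cd33 was nearest to E2f2, a cell-cycle transcription factor gene with an 8mer (0.15), and then to the lysozyme gene Lyz2, which has a 7mer-A1 (0.17). AB124611 was nearest to the histone gene Hist1h4k (0.12), on 1 to 12 reads per library, and to the small nucleolar RNA Snord32a (0.19), on 3 to 13. Genes with and without a 3′ UTR match thus stood side by side, in a measure that holds the same difference between the groups as chose the 5 genes.

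The genes next to the 5 genes on the chromosomes played no part in the choice. Of 10 nearest tested neighbours, 1 on each side of each gene, 9 had an unadjusted limma p of 0.05 or above, with log2 fold changes between -0.17 and 0.29, where 5.21% of all tested genes were lower and 4.17% higher at an unadjusted p under 0.05. The tenth was Mesdc2, a chaperone gene for lipoprotein receptor-related proteins, which lies 7658 bases from Mesdc1 on the opposite strand. It stood at 22.7 and 15.98 RPKM without miR-125b, against 38.0 and 37.0 RPKM with it. Its log2 fold change of 0.94 ± 0.22 (SE) was opposite in sign to that of Mesdc1 and did not pass limma's adjustment over all genes (adjusted p = 0.404). Pcx, which encodes pyruvate carboxylase and lies 798 bases from Rce1, was at 6.79 ± 0.711 RPKM on average without miR-125b, against 7.68 ± 1.89 RPKM with it (SD, n = 2 each). Carm1, a gene of an arginine methyltransferase 2100 bases from AB124611, was at 50.03 ± 3.29 and 53.6 ± 0.232 RPKM. No row of another gene overlapped any of the 5.

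Relatives and partners of Pstpip2, Cd33, Rce1 and Mesdc1, and immunoglobulin-superfamily receptors of myeloid cells, were counted in 8 lists without the 5 genes themselves. Over 138 distinct tested genes of these lists 0 passed limma's test over all genes, 15 were lower and 7 higher at an unadjusted p under 0.05, and the median log2 fold change was -0.030, beside 0.024 over all tested genes. Of all tested genes 5.21% were lower and 4.17% higher at that p, and the 15 include Npl, already known as lowered in these libraries. Leaving out control replicate 1 turned this total of 22 into 44, and leaving out miR-125b replicate 2 into 10.

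PSTPIP2 belongs to the F-BAR proteins, which bind and bend membranes. Of 24 listed genes 16 others were tested (median -0.11). At an unadjusted limma p under 0.05, 1 was lower, 1 was higher and 14 did neither. The shares over all tested genes were 5.21% lower and 4.17% higher. Pstpip1, the closest relative of Pstpip2, is mutated in a human autoinflammatory syndrome. It was at 24.5 and 47.7 RPKM without miR-125b, against 29.8 and 26.6 RPKM with it, so that the groups overlapped. Its log2 fold change was -0.27 and turned to 0.19 without control replicate 2. Arhgap4, a GTPase-activating protein gene, was at 33.6 ± 6.03 and 22.9 ± 0.446 RPKM (limma adjusted p = 0.507), and Fchsd2 was at 8.02 ± 0.131 and 11.9 ± 2.20 RPKM (adjusted p = 0.505; SD, n = 2 each).

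There were 15 tested genes of PSTPIP partners and the interleukin-1 beta pathway (median -0.20). At an unadjusted limma p under 0.05, 4 were lower, namely Was, Ptpn18, Lyn and Inpp5d, and 0 were higher. Over all tested genes 5.21% were lower and 4.17% higher. In the interleukin-1 beta pathway, Casp1, Casp8, Myd88, Il1r1 and Il1rap had an unadjusted limma p of 0.05 or above. Il1a, Il1b, Nlrp3 and Pycard were below 1 RPKM in every library, and Mefv was at 0. Was, the Wiskott-Aldrich gene whose protein drives actin branching and binds PSTPIP1, was at 60.8 and 57.9 RPKM without miR-125b, against 30.0 and 24.3 RPKM with it, and the groups lay apart. Its log2 fold change was -1.11 ± 0.20 (SE; limma adjusted p = 0.303). Ptpn18, a phosphatase gene of the PEST group that binds PSTPIP proteins, was at 47.9 and 84.9 RPKM without miR-125b, against a mean of 24.8 ± 1.16 RPKM with it (SD, n = 2). Its log2 fold change of -1.33 (adjusted p = 0.368) was -0.92 without control replicate 2.

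The Src family kinase gene Lyn was at 17.4 ± 2.37 and 10.5 ± 0.00308 RPKM (SD, n = 2 each; limma adjusted p = 0.439). Inpp5d, the gene of the lipid phosphatase SHIP1, which PSTPIP2 recruits, was at 24.97 ± 4.76 and 17.0 ± 1.06 RPKM (adjusted p = 0.509). The log2 fold change of Inpp5d, -0.52, was -0.33 without control replicate 2. Ptpn12, which encodes the phosphatase PTP-PEST, was at 28.3 ± 1.95 and 29.3 ± 1.33 RPKM. Csf1r, the receptor gene of macrophage colony-stimulating factor, upstream of PSTPIP2 in macrophages, was at 1.03 ± 0.412 and 0.969 ± 0.220 RPKM, a level near 1 RPKM in both groups.

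CD33 is a Siglec, a receptor that binds sialic acids on cell surfaces and in human cells passes inhibitory signals through phosphatases such as SHP-1. Of the Siglec genes, Cd33 and Siglec5 alone passed the filter. Siglec5 was at 4.04 and 2.76 RPKM without miR-125b, against 3.53 and 3.62 RPKM with it, where the groups overlapped. Siglece was at 0.144 RPKM or less in every library, and Siglecg was at 0 in all 4. Ptpn6, the gene of SHP-1, was at 178.0 ± 10.7 RPKM on average without miR-125b, against 136.5 ± 28.7 RPKM with it (SD, n = 2 each; limma adjusted p = 0.608). Hcst, a transmembrane adaptor gene, was at 10.5 ± 1.20 and 6.18 ± 1.37 RPKM (limma adjusted p = 0.464). It was the 1 gene of 5 others in this list with an unadjusted p under 0.05. That p was reached by 5.21% of all tested genes as lower and 4.17% as higher.

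In the list of genes that make or remove sialic acids, 3 of 16 tested genes were lower and 0 were higher at an unadjusted p under 0.05, beside 5.21% and 4.17% of all tested genes (median -0.16). Npl, which encodes N-acetylneuraminate lyase, was at 13.9 and 16.3 RPKM without miR-125b, against 4.29 and 5.71 RPKM with it. Npl has an 8mer in its longest 3′ UTR. It was already known as a lowered gene in these libraries, so it adds no independent support. Its log2 fold change was -1.43 ± 0.20 (SE; limma adjusted p = 0.213). Neu1, the gene of a lysosomal sialidase, was at 10.4 ± 3.06 and 4.18 ± 0.252 RPKM, and the polysialyltransferase gene St8sia4 at 12.4 ± 0.693 and 8.67 ± 0.852 RPKM (SD, n = 2 each; adjusted p = 0.363 and 0.505).

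AB124611 had been placed in a list of immunoglobulin-superfamily receptors of myeloid cells, though no function is given for that gene here. Among the 19 tested genes of that list without AB124611, 3 were lower and 2 higher at an unadjusted limma p under 0.05 (median -0.31). None passed limma's adjustment. Over all tested genes the shares were 5.21% lower and 4.17% higher. Trem1, an activating receptor gene, was at 2.61 and 3.18 RPKM without miR-125b, against 1.29 and 0.227 RPKM with it. Its log2 fold change of -1.21 turned to -0.76 if miR-125b replicate 2 was left out, and to -1.66 if replicate 1 was. The latter had a limma adjusted p of 0.0239, in a fit where the 1 miR-125b library left, with 8 reads of Trem1, is assumed to vary like the control libraries. Pilrb1 was at 1.80 ± 0.541 and 0.597 ± 0.254 RPKM, and Fcgr3, an Fc receptor gene, at 3.34 ± 0.394 and 8.51 ± 4.11 RPKM (SD, n = 2 each). The log2 fold change of Fcgr3, 1.06, was 0.61 without miR-125b replicate 1. Cd48, a ligand of CD244, was at 11.9 ± 0.712 and 18.7 ± 0.964 RPKM.

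RCE1 works between the prenyltransferases, which attach a farnesyl or geranylgeranyl group to the cysteine of a CAAX protein, and the methyltransferase ICMT, which caps the trimmed end. None of the 14 other tested genes of CAAX processing had an unadjusted limma p under 0.05, and their median log2 fold change was 0.17. At that p 5.21% of all tested genes were lower and 4.17% higher. Icmt was at 22.04 and 19.3 RPKM without miR-125b, against 19.3 and 16.7 RPKM with it. Fntb, a farnesyltransferase subunit gene, was at 6.26 and 7.68 RPKM without miR-125b, against 6.13 and 7.59 RPKM with it. Pggt1b, a subunit gene of the type I prenyltransferase, was at 9.47 ± 0.883 and 9.99 ± 0.451 RPKM (SD, n = 2 each). Zmpste24, the other CAAX protease gene, was at 39.8 and 20.03 RPKM without miR-125b, against 39.5 and 34.3 RPKM with it, and its log2 fold change of 0.37 turned to -0.11 without control replicate 2.

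The substrates of this pathway had a median of 0.13 over 30 tested genes, with 3 higher, 0 lower and 27 neither at an unadjusted p under 0.05, beside 4.17% higher and 5.21% lower of all tested genes. The small GTPase gene Rhoc was at 49.6 ± 12.9 RPKM on average without miR-125b, against 82.0 ± 1.86 RPKM with it, the G protein subunit gene Gng12 at 65.1 ± 5.44 and 94.2 ± 11.1 RPKM, and the kinetochore gene Cenpf at 9.90 ± 3.09 and 18.7 ± 1.27 RPKM (SD, n = 2 each). Their limma adjusted p were 0.464, 0.505 and 0.439.

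The talin rod to which MESDC1 is related links integrins to actin. There were 23 other tested genes of talins, kindlins and integrin adhesion (median -0.022). At an unadjusted limma p under 0.05, 3 were lower, 1 was higher and 19 did neither. Over all tested genes the shares were 5.21% lower and 4.17% higher. Tln1 was at 176.2 and 185.5 RPKM without miR-125b, against 140.1 and 150.8 RPKM with it, without overlap (limma adjusted p = 0.623). Vasp, an actin filament elongation gene, was at 169.8 ± 23.8 and 95.4 ± 4.94 RPKM (SD, n = 2 each; adjusted p = 0.420). Fermt3, the kindlin of blood cells, was at 192.7 and 350.3 RPKM without miR-125b, against 148.2 and 153.4 RPKM with it, and Itgb3, an integrin chain, was at 114.3 ± 41.6 and 68.8 ± 5.65 RPKM. The log2 fold changes of Fermt3 (-0.78) and Itgb3 (-0.68) were -0.35 and -0.30 without control replicate 2. The higher gene was Mesdc2, the chaperone gene described above. It had been listed although it encodes no talin, kindlin or integrin.

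**Figure D4:**
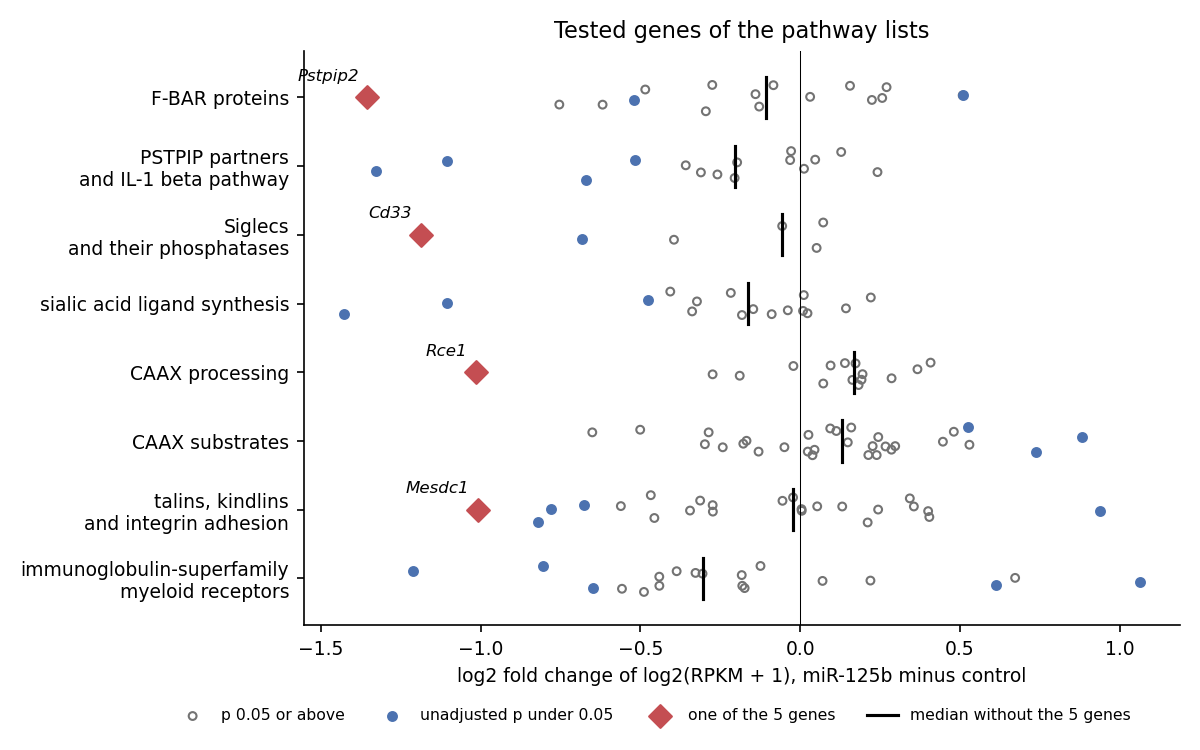
Log2 fold changes (miR-125b minus control, log2(RPKM + 1) scale) of the tested genes in 8 lists, with filled circles for an unadjusted limma p under 0.05, black bars for list medians and diamonds for Pstpip2, Cd33, Rce1 and Mesdc1. The medians lie between -0.31 and 0.17, and each diamond lies to the left of its list's median.

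Markers of maturing blood cells moved in both directions in value. Leaving out 1 or 2 genes changed how the groups compared in the neutrophil, the monocyte and macrophage, and the mast cell and basophil sums. The genes named here were chosen after their values were seen, and 0 passed limma's test over all genes. Of 11 tested neutrophil markers 5 were lower and 1 was higher at an unadjusted limma p under 0.05. The counts were 1 and 1 of 4 monocyte and macrophage markers, and 3 and 2 of 6 mast cell and basophil markers. Beside these counts, 5.21% of all tested genes were lower and 4.17% higher at that p.

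The 14 neutrophil markers with a row summed to 1678 and 2102 RPKM without miR-125b, against 1548 and 1063 RPKM with it, with 12, 11, 11 and 9 of them at 1 RPKM or more and Mmp8 at 0. Without the calprotectin genes S100a8 and S100a9 the sums were 1074 and 1727 RPKM, against 1504 and 1060.2 RPKM, and the groups overlapped. The 5 lower markers did not overlap between the groups. Their means without and with miR-125b were 135.9 and 5.89 RPKM for S100a8 and 353.8 and 17.4 RPKM for S100a9. Those of Ltf were 7.02 and 0.781 RPKM, of Cebpe 56.5 and 23.2 RPKM, and of Ngp 166.7 and 70.8 RPKM. The 1 higher marker was Mpo, the myeloperoxidase gene, at 39.1 and 54.2 RPKM without miR-125b, against 273.0 and 105.3 RPKM with it.

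The 11 monocyte and macrophage markers summed to 194.5 and 228.9 RPKM without miR-125b, against 169.7 and 155.6 RPKM with it, with 3, 4, 4 and 3 at 1 RPKM or more and Ccr2, Marco and Msr1 at 0. Without Lyz2 the order turned, with sums of 54.2 and 71.6 RPKM, against 111.7 and 89.5 RPKM with miR-125b. The lysosomal gene Cd68 made up most of the latter, at 25.97 and 39.1 RPKM without miR-125b, against 85.2 and 76.7 RPKM with it.

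The 12 mast cell and basophil markers summed to 247.6 and 148.1 RPKM without miR-125b, against 80.2 and 51.5 RPKM with it, with 5, 4, 5 and 5 of them at 1 RPKM or more and Fcer1a and Tpsb2 at 0. Without the granzyme gene Gzmb the sums overlapped, at 41.01 and 38.8 RPKM, against 41.4 and 27.9 RPKM with miR-125b. The 12 erythroid and megakaryocyte markers summed to 290.5 and 297.9 RPKM in control libraries and 180.6 and 287.2 RPKM in miR-125b ones, with 8, 8, 9 and 9 at 1 RPKM or more and Hbb-b1 at 0. S100a8, Ltf, Lyz2 and Gzmb are themselves among the 24 genes behind the choice. The part of such markers in the levels of Pstpip2, Cd33 and the other genes was not tested, and in bulk RNA fewer cells of a kind and less RNA per cell cannot be told apart.

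**Figure D5:**
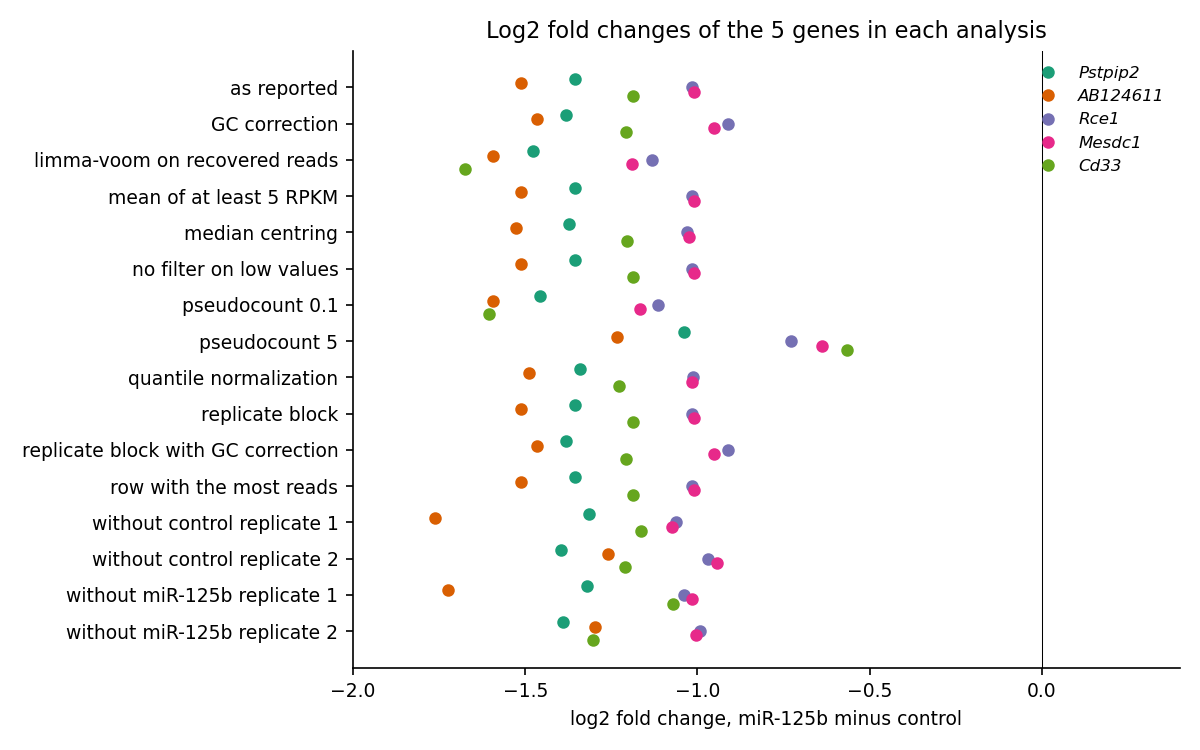
Log2 fold changes of the 5 genes (miR-125b minus control) under each way of processing, with Cd33 missing where a mean of at least 5 RPKM was required. All values are below 0, which the choice of genes with separate groups fixes for libraries left out, and those of Cd33 spread most widely, from -1.68 to -0.57.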

How the data were processed

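The authors deposited 1 table per library with 26982 RefSeq transcript rows and an RPKM value for each. Coordinates are in mm9, the build in the submitters' processing notes. For the aligner, the counter and the strand setting, nothing is stated in the sources read here, so antisense reads cannot be told apart. Multiplied by exon length, 100.0% of the RPKM values were whole multiples of 1 step per library (tolerance 0.001 reads), which gave the reads. The row with the longest exons was kept per gene. Genes with at least 1 RPKM in at least 2 libraries (10310) were tested with limma 3.58.1 (R 4.3.3; moderated model, trended prior, 2-sided) on log2(RPKM + 1), 2 against 2 libraries, with Benjamini-Hochberg adjustment and a threshold of 0.05. Residual degrees of freedom were 2, with 4.63 from the prior. The fit was also run on simulated reads. These held no deviation linked to GC content like that of control replicate 2, so the run does not show how the fit performs here.

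Members, lists and tests were chosen with earlier results of these data known. Named besides the 5 genes are up to 4 genes per list by smallest p under 0.05, 14 partners set by name, nearest neighbours on the chromosome and the 2 nearest profiles per gene. Seed matches were searched in GENCODE M21 transcripts (GRCm38; 99.4% of genes joined by accession or symbol), and no coordinates were mixed between builds. Alternatives changed the pseudocount, filter, scaling, row per gene, GC content, replicate block, test or libraries.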

Additional observations from a re-analysis of the deposited data

How the results depend on the processing

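Every log2 fold change of the 5 genes stayed negative in each of 15 alternatives that held the gene, which their choice partly fixes. With a pseudocount of 5 they shrank to -1.04 for Pstpip2, -1.23 for AB124611, -0.73 for Rce1, -0.64 for Mesdc1 and -0.57 for Cd33, because a larger pseudocount shrinks low values most. Cd33 was at -1.61 with a pseudocount of 0.1 and at -1.68 with limma-voom, which also gave -1.19 for Mesdc1. With libraries left out in turn AB124611 ran from -1.76 to -1.26. Genes called ran from 0 to 91, genes at an unadjusted p under 0.05 from 332 to 3007, those of the lists from 10 to 44 and the lower ones among them from 6 to 27; the cause was not tested. Same-numbered replicates deviated together with r = 0.021 across genes. Control replicate 2 had a deviation of its own that went with GC content, so this value cannot show whether the numbers pair the libraries. With the replicate number as a block 12 genes were called, and 16 with a GC correction added, an alternative chosen after seeing the data. Over every annotated isoform 1 of the 5 genes, AB124611, had a 7mer-m8 in a 3′ UTR, against 0 for the longest coding ones. Of 46 other named genes 35 kept their sign throughout. Trem1, Hist1h4k and Snord32a gained a call without miR-125b replicate 1, and Npl without miR-125b replicate 2 and with the block and GC correction; with a library left out, the lone one is assumed to vary like the other group. Depth limits Cd33 most.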
